A study of Mus musculus with 6 samples.

Results

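The genes described here belong to mitochondrial complex I, as subunits or assembly factors, and were all those whose symbol starts with Nduf and whose mean normalized read count over the 6 libraries was at least 10. They numbered 40 of 42 such rows, among 13175 genes with that mean and 23337 symbols in all. They comprised 7 nuclear-encoded core subunits, 28 accessory subunits and 4 Ndufaf assembly factors. The remaining one was Ndufa4, which carries the family name but is now known as a subunit of cytochrome c oxidase. Core subunits encoded in mitochondrial DNA were not analysed here. The lowest mean among the 40 was that of Ndufb4, at 677.9, so no member lay close to the minimum of 10. Outside it were Ndufa4l2, a paralog of Ndufa4, with a mean of 1.41, and Ndufs5, a small accessory subunit that was listed at 0 in all 6 libraries. Of the distinct 50-base stretches of the Ndufs5 transcripts, 21.7% also occur in a transcript of BC002163, which lay between 107.4 and 170.0 in the 6 libraries.

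Complex I (NADH:ubiquinone oxidoreductase) is the entry point of electrons from NADH into the mitochondrial respiratory chain. Its matrix arm carries the flavin and the iron-sulfur clusters that pass electrons to quinone, and its membrane arm pumps protons. A conserved catalytic core is encoded partly in the nucleus and partly in mitochondrial DNA, accessory subunits surround that core, and assembly factors help to build the enzyme without remaining in it. In the substantia nigra pars compacta (SNc), dopaminergic neurons are known for their sensitivity to complex I inhibitors.

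RNA came from SNc dopaminergic neurons of adult C57BL/6 mice, sorted after papain dissociation. All mice carried 3 alleles: Sox6-FSF-Cre, the RC-Frepe reporter and Th-2A-Flpo. Neurons expressing Sox6 were collected by GFP (Sox6+, 3 libraries) and neurons without Sox6 by mCherry (Sox6-, 3 libraries), with the numbers 103, 825 and 1211 in both groups. The reporter follows recombination by Cre and Flp, so GFP records that both drivers were once active in a cell and not their level at sorting. In mCherry cells, recombination by Cre, which is carried by the Sox6 allele, was not recorded. How many animals stand behind a library is not given in the sources used here, so p-values measure the spread between these libraries, which may be technical. Values are read counts that the authors normalized by library.

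The libraries held 10397924 to 12952768 reads in genes. Sox6, which defines the sort, lay at 389.0 to 840.5 in the Sox6+ libraries and at 18.1 to 103.6 in the Sox6- libraries. Of 12 dopaminergic markers, 11 passed the mean of 10 and 10 of these were higher on average in Sox6+ libraries. Their summed level ran from 148257 to 255622 in Sox6+ and from 45120 to 140076 in Sox6- libraries. The 8 GABAergic markers summed to between 15 and 7070 in Sox6+ and between 4460 and 15562 in Sox6- libraries, with Tal1 at 0 throughout. They did not move as one. Sst lay at 0 to 1.97 in Sox6+ and at 3164.2 to 5814.1 in Sox6- libraries. Gad1 overlapped, at 4797.5, 0 and 1244.8 in Sox6+ libraries 103, 825 and 1211 against 7647.0, 508.6 and 2636.7. Pvalb lay at 400.5, 0 and 868.7 against 60.4, 66.5 and 128.0. Sox6+ library 825 stood apart: its 12 microglia and macrophage markers summed to 28341, against 15 to 43 in the other 5 libraries, and most of that was Lyz2 at 26494.1. Tyrobp, Cd68, Ptprc and Csf1r were at 1035.1, 387.2, 335.9 and 58.1 in it. Other markers of this list were not raised there: Aif1, C1qa and C1qb were at 0, and Cx3cr1 and C1qc at 2.28. P2ry12 was at 26.2, below its 31.4 in Sox6+ library 1211, and Itgam was at 0 throughout. The oligodendrocyte-lineage markers of Sox6+ library 825 summed to 2107, against 264 to 392 elsewhere. Glutamatergic markers summed to between 163 and 999 in Sox6+ and between 2263 and 4815 in Sox6- libraries. Ependymal markers summed to 474 in Sox6+ library 1211 and to at most 11 elsewhere, astrocyte markers to at most 130 and endothelial and pericyte markers to at most 58, with Gja1, Cldn5 and Rgs5 at 0 throughout. Values without Sox6+ library 825 are given for some of the medians and for some of the members that it moved. In bulk libraries, fewer cells of a type and less RNA per cell cannot be told apart.

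Nuclear respiratory factor 1 (NRF1) and YY1 are transcription factors known for sites in promoters of respiratory chain genes. The promoters of the members were searched for their motifs as a description of sequence. RefSeq promoters on GRCm38.p6, running from 250 bases before to 50 after the gene start, were matched by symbol for 36 of the 40 members. Those of Ndufa2, Ndufb9 and Ndufs1 were among the 4 not matched. The NRF1 motif, 10 bases with the sixth of them free and read on both strands, was in 7 of 36 promoters (19.4%), against 11.3% of 9410 tested genes with a promoter. The YY1 letters AAGATGGCG, also on both strands, were in 5 of 36 (13.9%), against 3.4%. The ETS letters CCGGAAG, the core of sites for GABPA, were in 13.9% of member promoters and in 19.0% of all. No ETS match was in a promoter with an NRF1 or YY1 match, and in Ndufs6, the promoter that held both of these, they did not overlap. A match is a description of the sequence only. SP1 letters (GGGCGG) were in 52.8% of member promoters against 68.9% of all. The following 30-base stretches carry the matches in capitals, each written on the strand of its gene.

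Ndufa11 NRF1 match: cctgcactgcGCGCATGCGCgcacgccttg
Ndufaf4 NRF1 match: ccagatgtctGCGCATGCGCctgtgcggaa
Ndufa8 NRF1 match: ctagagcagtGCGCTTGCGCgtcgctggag
Ndufs6 NRF1 match: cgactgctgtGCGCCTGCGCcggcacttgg
Ndufa9 YY1 match: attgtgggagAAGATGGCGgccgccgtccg
Ndufc1 YY1 match: cctgcggaacAAGATGGCGccgtccgtagt
Ndufs7 YY1 match: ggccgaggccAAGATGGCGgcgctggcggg

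The Ndufa11 stretch lies at chr17:56717692-56717721 (plus strand), and its match begins 60 bases before the gene start. In the Ndufaf4 stretch (chr4:24897960-24897989, plus strand) the match begins 113 bases before the start. It begins 30 bases before it for Ndufa8 (chr2:36049349-36049378, minus strand) and 16 for Ndufs6 (chr13:73328479-73328508, minus strand). The YY1 matches begin after the start, at base 30 for Ndufa9 (chr6:126849096-126849125, minus strand), 23 for Ndufc1 (chr3:51408914-51408943, minus strand) and 25 for Ndufs7 (chr10:80249463-80249492, plus strand). All these distances are from the RefSeq start, and the GENCODE start can differ. GENCODE starts Ndufa8 at 36049406, Ndufs6 at 73328542 and Ndufs7 at 80249121. By those starts, the NRF1 matches of Ndufa8 and Ndufs6 lie inside the gene. Ndufa5, Ndufa6 and Ndufb4 also held the NRF1 motif, and Ndufs4 and Ndufs6 the YY1 letters. In the comparison below, Ndufa11 had a log2 difference of 0.36 and Ndufa8 of -0.07. A relation between the motifs and the differences was not tested. For the member of smallest p, Ndufb2, the 250 bases before the start (chr6:39592315-39592564, plus strand) held none of the NRF1, ETS, YY1 and SP1 motifs. They are shown because this gene led the comparison, with the CCAAT letters, the only match found in them, in capitals.

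Ndufb2 upstream: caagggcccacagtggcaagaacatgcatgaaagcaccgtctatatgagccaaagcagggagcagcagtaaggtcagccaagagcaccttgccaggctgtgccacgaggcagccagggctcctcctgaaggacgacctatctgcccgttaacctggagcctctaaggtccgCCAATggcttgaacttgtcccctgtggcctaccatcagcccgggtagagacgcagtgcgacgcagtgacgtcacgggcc

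Complex I genes were abundant in both populations and differed little between them. The log2 difference of Sox6+ over Sox6- libraries was positive in 37 of the 40 members, with a median of 0.14 (1.10-fold), and ran from -0.07 for Ndufa8 to 0.44 for Ndufv3. No member passed the threshold of 0.05 by limma's test, with p adjusted over the whole table by the Benjamini-Hochberg method, while 0.304% of tested genes did. Among all tested genes 48.1% had a positive difference and the median was -0.02. Among the 4315 genes with a mean of at least 500, a class that holds all 40 members, 57.8% were positive and the median was 0.05. The direction of the smaller differences depended on the scaling. When libraries were scaled to equal totals or quantile normalized, 28 members were positive in each case, and the median was 0.06 in each case.

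The edgeR and DESeq2 tests and the authors' own gave the same count of 0. At an unadjusted p under 0.05, 5 members were called by limma, all of them higher in Sox6+ libraries, where 5.21% of tested genes were called in that direction. The count was 1, Ndufb2, with equal library totals and with quantile normalization, and 9 with library weights. For these settings the share of all tested genes under that unadjusted p is not given, so the counts cannot be set against it. The 5 were Ndufb2, Ndufa11, Ndufc1, Ndufa3 and Ndufa9, all accessory subunits. EdgeR on the recovered reads called 0 members at an adjusted p under 0.05 (0.0455% of tested genes) and 4 at an unadjusted one, all higher in Sox6+ libraries (4.56%). DESeq2 called 0 (2.94% of tested genes) and 5, again all higher (5.87%). In the authors' deposited table, 0 members had an adjusted p under 0.05 (2.83% of genes with a value), and the smallest was 0.114, for Ndufb2.

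**Figure D1:**
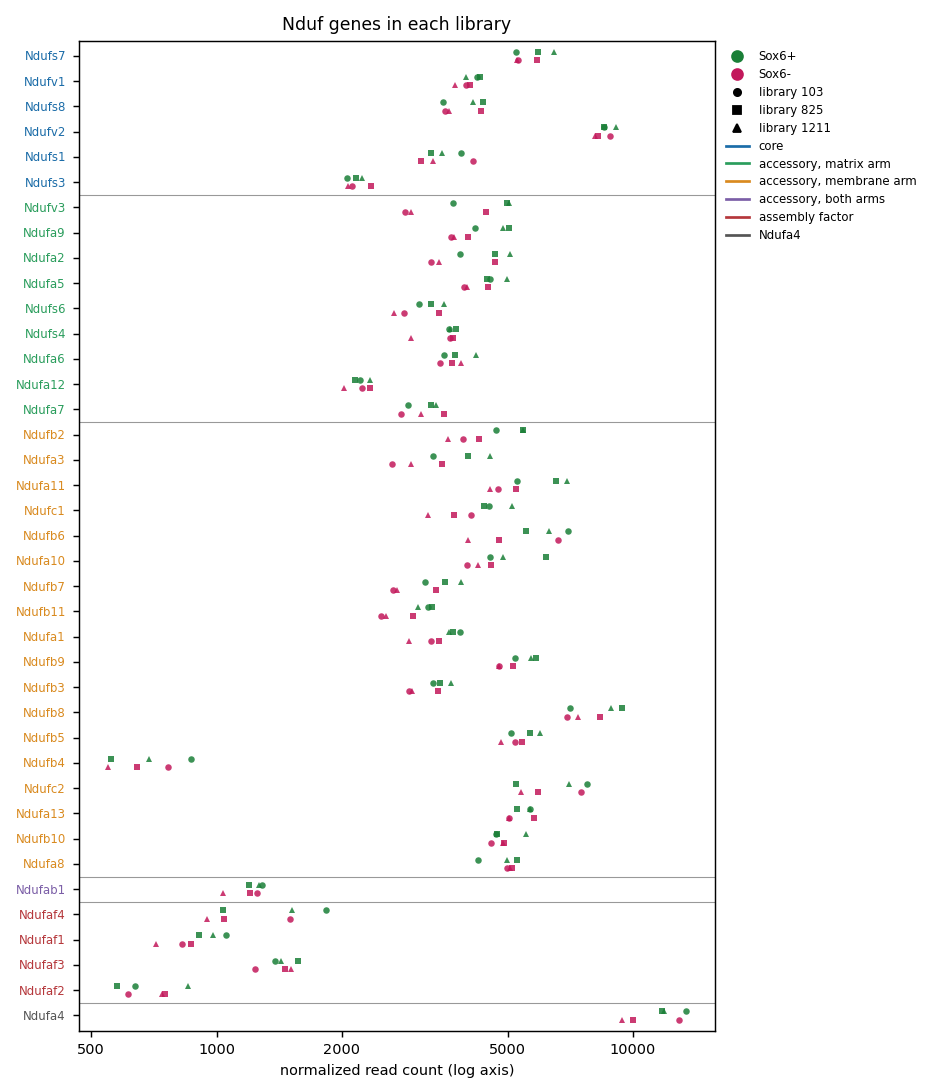
Normalized read count (horizontal, log axis) of 39 of the 40 Nduf genes in each of the 6 libraries, green for Sox6+ and magenta for Sox6-, with a symbol for each library number and gene names coloured by role. The green points lie clear of the magenta points in 8 genes, 7 of them accessory subunits, and Ndufa4 has the highest values, up to 13433.5.

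Under every setting run, core subunits had a lower median difference than the accessory subunits of either arm and the genes listed as Ndufaf. This order did not extend to the assembly factors listed under other symbols, which are described below. In the main fit, Ndufaf genes under older symbols had a median of -0.04, and assembly factors with other names had 0.07. The 7 core genes had a median log2 difference of 0.07, with 6 positive and 0 past the threshold. Of these, 6 are described here, from -0.01 for Ndufs3 to 0.10 for Ndufs7. Ndufs7, which lines the quinone-binding site, lay at 5240.4, 5925.8 and 6476.2 against 5288.9, 5894.3 and 5268.8, with overlapping groups. Ndufv1, the subunit that binds NADH and the flavin, lay at 4162.0 ± 172.2 against 3930.4 ± 172.6 (SD, n = 3 each). Its log2 difference was 0.08, with a 95% interval from -0.19 to 0.36.

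The other core subunits described are iron-sulfur proteins or, in the case of Ndufs3, a structural part of the quinone-reducing module. Ndufv2 lay at 8712.3 ± 331.7 against 8378.1 ± 369.4, Ndufs8 at 4005.5 ± 451.1 against 3825.5 ± 427.2, and Ndufs1 at 3539.4 ± 295.2 against 3514.6 ± 551.4 (SD, n = 3 each). Ndufs3, named because its difference was negative, lay at 2150.9 ± 90.2 against 2173.8 ± 149.1 (SD, n = 3 each). The 95% interval of each of these 6 included 0, and its upper end was at most 0.40, which is 1.32-fold. None of the 7 separated the groups. Scaled to equal totals or quantile normalized, the core median was -0.01.

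Accessory subunits of the membrane arm had a median log2 difference of 0.20 over 18 genes, with 17 positive. The order of the medians of the accessory and Ndufaf genes depended on the setting. With library weights the membrane arm and the matrix arm were both at 0.21 and the Ndufaf genes at 0.22, and without Sox6- library 1211 the membrane arm and the Ndufaf genes were both at 0.15. The groups did not overlap in 6 of them, all higher in Sox6+ libraries, where 7.86% of tested genes did the same. No member lay lower in all Sox6+ than in all Sox6- libraries, as 9.19% of tested genes did. Among genes with a mean of at least 500, 10.8% lay higher without overlap, and 3 against 3 libraries cannot give an exact permutation p below 0.1. Ndufb2, in the distal proton-pumping part, lay at 4696.8, 5443.0 and 5445.8 in Sox6+ libraries 103, 825 and 1211 and at 3903.6, 4272.0 and 3593.8 in the Sox6- libraries. All 3 Sox6+ values lay above all 3 Sox6- values. The log2 difference of 0.41 had a standard error of 0.135 (95% interval 0.10 to 0.71) and an adjusted p of 0.296 (limma). Across the alternative settings that adjusted p ran from 0.0877 with DESeq2 to 0.841 without Sox6- library 1211. On GRCm38 this gene lies on chromosome 6, from 39592574 to 39603382.

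Ndufa11, a multipass protein at the joint of membrane arm segments, lay at 5268.0, 6540.7 and 6931.7 against 4732.5, 5230.7 and 4539.8. The lowest Sox6+ value was only slightly above the highest Sox6- value. Its log2 difference was 0.36 (95% interval 0.04 to 0.69) and its adjusted p was 0.399 (limma). Ndufc1, a small single-pass subunit, lay at 4508.4, 4387.4 and 5117.7 against 4074.4, 3723.1 and 3227.5, again without overlap, with a log2 difference of 0.35 (95% interval 0.03 to 0.67). Ndufa3 lay at 3310.8, 4009.4 and 4534.6 against 2632.5, 3471.3 and 2935.3. Here the groups overlapped, because Sox6- library 825 lay above Sox6+ library 103, and the log2 difference was 0.39 (95% interval 0.01 to 0.76).

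The other membrane arm genes without overlap were Ndufb11, Ndufa1 and Ndufb9. Ndufb11 and Ndufa1 are both on the X chromosome. Ndufb11 lay at 3215.1, 3298.8 and 3044.0 against 2488.6, 2965.8 and 2546.7, and Ndufa1 at 3840.5, 3695.1 and 3622.5 against 3281.9, 3423.0 and 2894.5. Ndufb9 lay at 5202.9, 5858.6 and 5688.8 against 4762.2, 5142.1 and 4774.4. Their log2 differences were 0.26, 0.22 and 0.19, and each 95% interval included 0. In all 3 the highest Sox6- value belonged to library 825. Of the 12 membrane arm subunits whose groups overlapped, Ndufa8 alone had a negative difference, and it was named for that. Ndufa8, a coiled-coil-helix protein of the intermembrane space side, lay at 4246.0, 5260.8 and 4995.7 against 4984.8, 5127.0 and 5069.4.

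Ndufb6, Ndufc2 and Ndufb4, small subunits of the membrane arm, were highest in library 103 of both groups. Of the 40 members, 17 had their highest value in the same number in both groups, as did 44.1% of tested genes. Ndufb6 lay at 6983.6, 5535.2 and 6300.6 against 6616.6, 4771.5 and 4021.4, and Ndufc2 at 7754.1, 5248.3 and 7010.3 against 7504.0, 5930.6 and 5401.4. Without Sox6+ library 825, the lowest of its group in all 3 genes, the log2 differences of 0.31 for Ndufb6, 0.08 for Ndufc2 and 0.10 for Ndufb4 were 0.40, 0.25 and 0.26. For Ndufb6 the spread within the Sox6- group (SD 1335.6) was larger than the difference between the group means of 6273.1 and 5136.5. Ndufb4 lay at 866.2, 559.1 and 687.5 against 762.7, 644.5 and 547.2, and 18.3% of its 50-base stretches also occur in transcripts of other genes such as Ndufb4c, so its count is uncertain. The same share was 31.6% for Ndufb6, all of it with Smim27, and 28.5% for Ndufa13, a subunit also known as GRIM-19. Ndufa13 lay at 5535.4 ± 220.0 against 5295.9 ± 428.5 (SD, n = 3 each).

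The 6 membrane arm subunits not yet described, namely Ndufa10, Ndufb3, Ndufb5, Ndufb7, Ndufb8 and Ndufb10, had positive log2 differences from 0.06 for Ndufb10 to 0.28 for Ndufa10 and Ndufb7. Their 95% intervals all included 0. Without Sox6+ library 825, the difference of Ndufa10 was 0.15 and that of Ndufb8 fell from 0.16 to 0.07. Ndufb8 was the most abundant of them by normalized read count, at 8445.3 ± 1223.5 against 7548.3 ± 709.2 (SD, n = 3 each). Ndufa10, a kinase-like subunit on the matrix face of the membrane arm, lay at 4549.8, 6174.0 and 4879.3 against 3997.6, 4553.9 and 4245.8. Only its Sox6+ library 103 reached into the range of the Sox6- libraries.

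**Figure D2:**
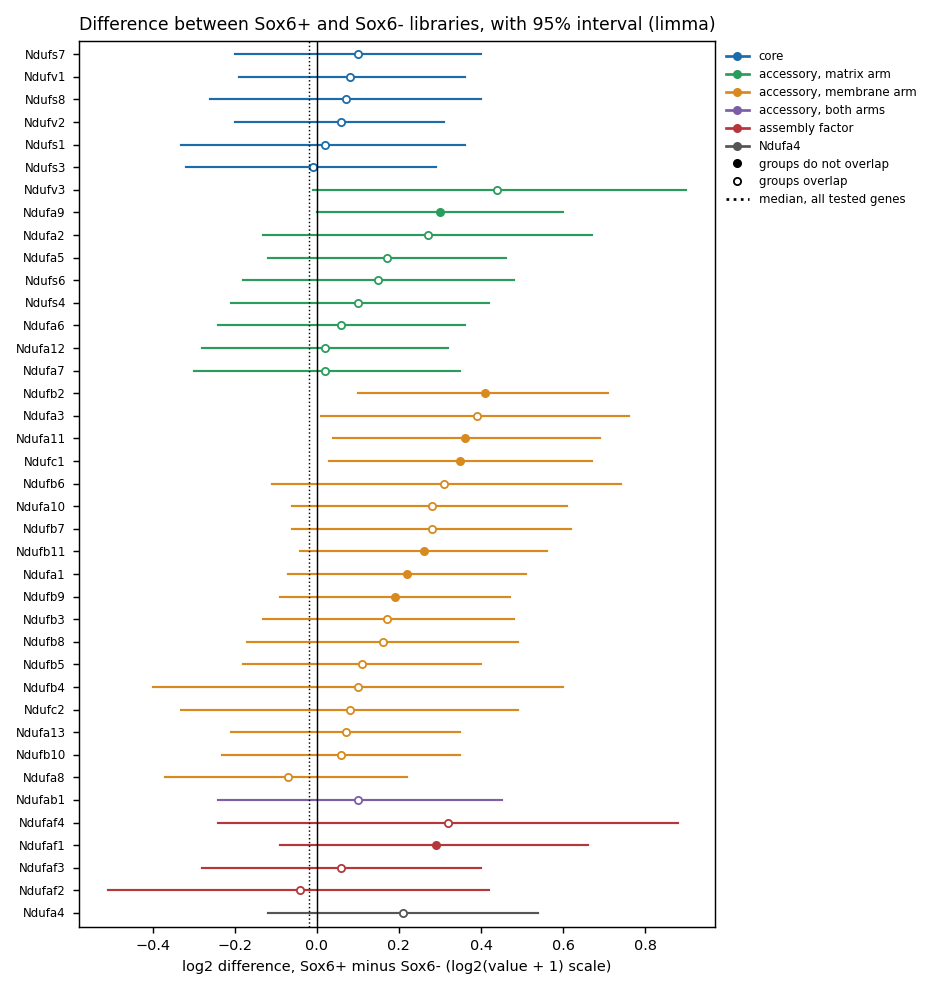
Log2 difference of Sox6+ minus Sox6- libraries (horizontal, log2(value + 1) scale) with its 95% interval from limma for 39 of the 40 genes, coloured by role, with filled points where the groups did not overlap. The core subunits shown sit between -0.01 and 0.10, the intervals of 34 genes include 0, and the dotted line marks the median of all tested genes at -0.02.

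Accessory subunits of the matrix arm had a median log2 difference of 0.15, and all 9 were positive under the authors' normalization, while Ndufa12 and Ndufa7 were negative with equal totals and with quantile normalization and Ndufa6 with equal totals. Ndufv3, a small subunit bound to the NADH-oxidizing tip, had the largest difference of all members. It lay at 3706.4, 4989.8 and 5044.7 in the Sox6+ libraries and at 2840.6, 4441.1 and 2937.2 in the Sox6- libraries. Sox6- library 825 stood with the Sox6+ libraries, so the groups overlapped. The log2 difference was 0.44 (95% interval -0.01 to 0.90), and it was 0.65 without that library and between 0.33 and 0.59 without any other. Ndufa2, a thioredoxin-fold subunit, had a similar order, at 3853.4, 4667.5 and 5080.7 against 3267.5, 4671.8 and 3419.5, and its difference of 0.27 was 0.43 when Sox6- library 825 was left out. With Sox6- library 103 or Sox6+ library 1211 left out it was 0.17 and 0.18.

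Ndufa9, which helps to hold the quinone-reducing module to the membrane arm, was the only matrix arm accessory subunit without overlap. It lay at 4169.0, 5043.3 and 4887.6 against 3666.6, 4011.1 and 3716.2. Its log2 difference was 0.30 and its adjusted p 0.433 (limma). Ndufs4, a subunit known from Leigh syndrome, lay at 3665.5 ± 75.2 against 3426.3 ± 425.3 (SD, n = 3 each), and its difference was -0.00 without Sox6- library 1211, where it was lowest at 2936.3. Ndufa5, Ndufs6, Ndufa6, Ndufa12 and Ndufa7 had differences from 0.02 to 0.17. Ndufab1, the mitochondrial acyl carrier protein that sits in both arms, lay at 1246.4 ± 46.1 against 1162.8 ± 112.2 (SD, n = 3 each), a log2 difference of 0.10.

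The ratio of the summed accessory to the summed core level does not depend on how libraries are scaled. It was 3.65, 3.68 and 3.91 in Sox6+ libraries 103, 825 and 1211 and 3.32, 3.62 and 3.37 in the Sox6- libraries. The groups did not overlap, but Sox6- library 825 lay next to Sox6+ library 103. Without Sox6+ library 825, the accessory median was 0.19 and the core median 0.06.

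Assembly factors split in direction. Over the 4 tested Ndufaf genes the median was 0.17, and 3 were positive. Ndufaf1, a member of the complex that assembles the membrane arm, lay at 1051.6, 907.5 and 980.5 against 827.9, 870.1 and 716.0. The groups did not overlap, and the log2 difference was 0.29 with an adjusted p of 0.543 (limma). Ndufaf4 and Ndufaf3 act together on the quinone-reducing module early in assembly. Ndufaf4 lay at 1832.0, 1037.4 and 1513.7 against 1505.2, 1042.3 and 947.8, so library 825 was the lowest of the Sox6+ group. Its log2 difference was 0.32, and single libraries moved it both ways: leaving out Sox6+ library 825 gave 0.54 and leaving out Sox6+ library 103 gave 0.13. For Sox6- libraries 103 and 1211 the values were 0.52 and 0.18. Ndufaf3 lay at 1459.5 ± 100.5 against 1402.8 ± 144.0 (SD, n = 3 each). Ndufaf2, a paralog of Ndufa12 that acts late in assembly, lay at 688.8 ± 145.4 against 701.8 ± 78.8 (SD, n = 3 each); it was named for its negative difference. Of its 50-base stretches, 64.1% also occur in transcripts of other genes, among them B230220B15Rik, so its count is uncertain.

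The table holds 4 more Ndufaf genes under older symbols, paired through RefSeq synonyms. Their median was -0.04, with 2 of 4 positive and 0 past the threshold. Ndufaf5, listed as 2310003L22Rik, hydroxylates an arginine of Ndufs7 and lay at 1376.3 ± 227.5 against 1353.3 ± 36.4 (SD, n = 3 each). Ndufaf7 (2410091C18Rik), a methyltransferase, lay at 1422.9 ± 185.4 against 1499.2 ± 95.0. Ndufaf6 (2310030N02Rik) and Ndufaf8 (1810043H04Rik), the latter a partner of Ndufaf5, had log2 differences of -0.10 and 0.06.

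Assembly factors with other names gave 8 of 12 positive differences, a median of 0.07 and 0 past the threshold. The 3 of smallest p were Tmem126b, Dmac2 (listed as Atp5sl) and Ecsit. Tmem126b, which works with Ndufaf1 on the membrane arm, lay at 1330.8, 1324.3 and 1371.4 against 1110.9, 1109.8 and 913.5, without overlap, and its adjusted p was 0.415 (limma). Ecsit, of the same assembly complex, lay the other way, at 639.3, 715.1 and 665.4 against 871.1, 758.3 and 754.0, also without overlap, with an adjusted p of 0.623 (limma). Sfxn4 was likewise lower without overlap, at 588.0, 536.3 and 599.7 against 706.1, 630.4 and 626.0. In this list 1 gene was thus higher and 2 were lower without overlap, as were 7.86% and 9.19% of tested genes. Dmac2 had a log2 difference of 0.25. Among regulators of mitochondrial biogenesis and mitochondrial DNA, 8 of 14 differences were positive, the median was 0.13 and 0 passed. That median had no stable direction: it ran from -0.16, without Sox6+ library 825, to 0.12 when 1 library was left out, and was -0.05 with library weights. The groups did not overlap in 4 of the 14, with Ppargc1b higher in Sox6+ libraries and Gabpb1, Polg and Tfam lower, where 9.19% of tested genes were lower. Tfam and Ppargc1b were named after their values were seen. Gabpb1 and Polg, the mitochondrial DNA polymerase, lay at 186.3 ± 34.1 against 284.8 ± 53.5 and at 54.5 ± 9.87 against 94.5 ± 14.7 (SD, n = 3 each). Gabpa, whose protein pairs with that of Gabpb1, lay at 148.8 ± 48.7 against 86.0 ± 23.3. The adjusted p values of Gabpb1, Polg and Gabpa were 0.445, 0.495 and 0.507 (limma).

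**Figure D3:**
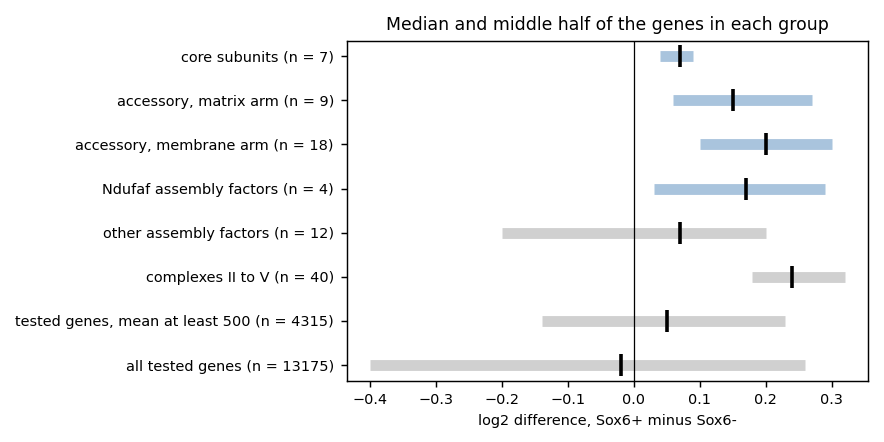
Median (black mark) and range from the lower to the upper quartile (bar) of the log2 difference of Sox6+ minus Sox6- libraries for Nduf genes by role in blue, and in grey for other assembly factors, genes of respiratory complexes II to V, tested genes with a mean of at least 500 and all tested genes. The core median of 0.07 lies near that of genes with a mean of at least 500, at 0.05, and the membrane arm median is 0.20.

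Genes of the rest of the respiratory chain had the same direction. Among 40 tested genes of complexes II to V, taken by symbol after the values were seen, 37 were positive, the median was 0.24 and 0 passed the threshold. No test of the difference between these genes and the complex I genes was made.

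Summed over the 40 members, Nduf genes took 1.447%, 1.472% and 1.505% of Sox6+ libraries 103, 825 and 1211 and 1.395%, 1.430% and 1.318% of the Sox6- libraries. The groups did not overlap, and the ratio of the mean shares was 1.07. For the sums of the normalized values, which follow the authors' size factors, the ratio was 1.12. Core subunits alone took 0.280% ± 0.005 of Sox6+ and 0.281% ± 0.007 of Sox6- libraries (SD, n = 3 each). Marker levels were followed across the same libraries, and their order matched that of the Nduf shares only in part. Sox6- library 825 had the highest Nduf share of its group and also the highest dopaminergic marker sum, at 140076 against 62119 and 45120. It had the lowest GABAergic sum, at 4460 against 15562 and 12423, and Sst made up 3164.2 of that 4460. Within the Sox6+ group, library 103 had the lowest Nduf share, the lowest dopaminergic sum at 148257 and the highest GABAergic sum at 7070. The order differed elsewhere: Sox6+ library 825 had the highest dopaminergic sum, at 255622, and the lowest GABAergic sum, at 15, but a lower Nduf share than library 1211. Sox6- library 103 had the highest GABAergic sum but a higher Nduf share than library 1211. The part of cell makeup in the difference was not tested. Without Sox6+ library 825, which carried Lyz2 and some other macrophage markers but not all of them, 37 of 40 members were positive and the median was 0.15. With Sox6+ library 1211 or Sox6- library 1211 left out, 33 were positive in each case and 0 members had an unadjusted p under 0.05 by limma, in place of 5. The share of all tested genes under that unadjusted p is not given for these fits, so the counts cannot be set against it. Calls fell over the whole table: 12 and 1 genes passed an adjusted p of 0.05 by limma, in place of 40.

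**Figure D4:**
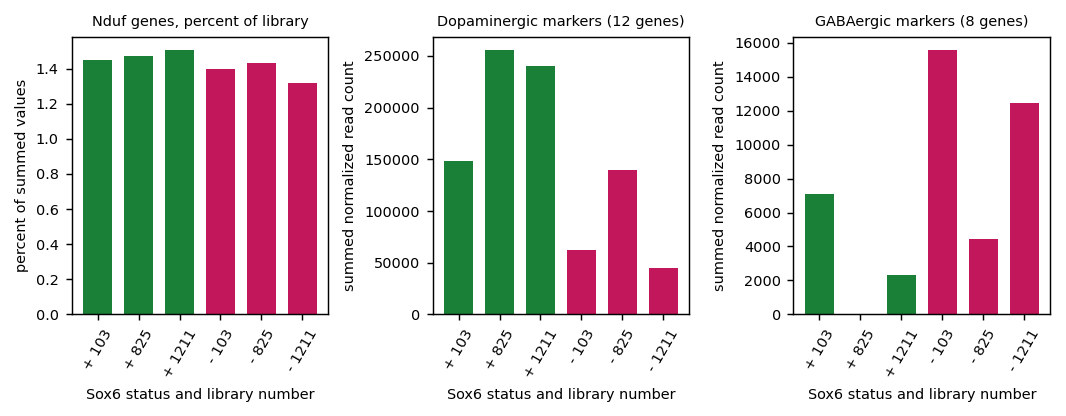
Share of each library taken by the 40 Nduf genes (left, percent of all normalized values), and summed normalized read count of 12 dopaminergic (middle) and 8 GABAergic markers (right), with 1 bar for each library, green for Sox6+ and magenta for Sox6-. Nduf shares run from 1.318% to 1.505%, while the dopaminergic sum runs from 45120 to 255622. The GABAergic sum includes Sst, at 3164.2 to 5814.1 in Sox6- and at most 1.97 in Sox6+ libraries.

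Per kilobase of annotated exon, the members differed far more from each other than between populations. The highest level over all 6 libraries was that of Ndufb6, at 8656.8 per kb, followed by Ndufc2 at 8587.2, Ndufa4 at 8379.5 and Ndufa1 at 8256.8. In the Sox6+ libraries these 4 lay at 9519.2 ± 1099.5, 8847.3 ± 1706.8, 8953.6 ± 671.1 and 8876.8 ± 265.0 per kb, so neighbours in this order did not differ beyond their spread. In the Sox6- libraries the order was another, with Ndufc2 at 8327.1 ± 1450.5, Ndufa4 at 7805.4 ± 1335.5, Ndufb6 at 7794.4 ± 2026.7 and Ndufa1 at 7636.8 ± 653.1 per kb. The lowest were Ndufab1 at 175.0 per kb, Ndufaf2 at 233.5 and Ndufaf4 at 336.5. All 4 Ndufaf genes and Ndufb4 were in the lowest 8 places, while core subunits ranged from 3980.1 for Ndufv2 to 436.2 for Ndufs1. The scale depends on the gene model: with the longest transcript in place of all exons, Ndufs1 lay at 1325.4, Ndufab1 at 346.3 and Ndufc2 was highest at 9479.9 per kb. Ndufa4 lay at 13433.5, 11781.0 and 11880.3 against 12883.1, 10013.2 and 9441.3 normalized reads, with overlapping groups and a log2 difference of 0.21.

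**Figure D5:**
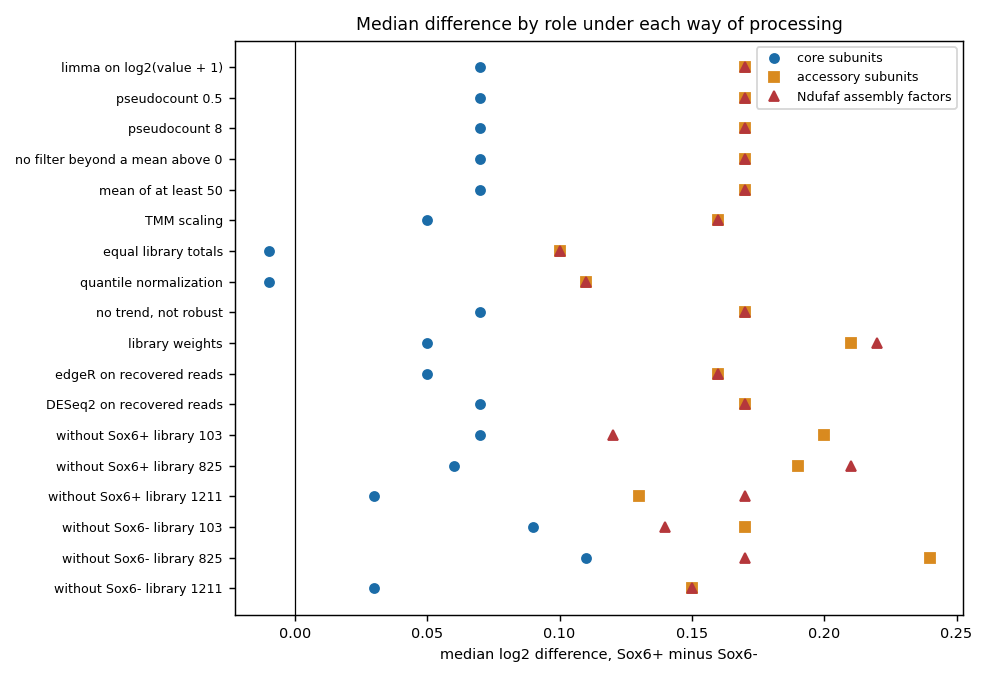
Median log2 difference of Sox6+ minus Sox6- libraries for core subunits, accessory subunits and Ndufaf assembly factors (horizontal) under each normalization, test or left-out library (vertical). The core median lies below the accessory median in all rows shown, between -0.01 and 0.11, and is below 0 with equal library totals and with quantile normalization.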

How the data were processed

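Stranded TruSeq mRNA libraries were made from the sorted cells, per the labels' protocols. STAR, HTSeq, DESeq2, cutadapt and FastQC are named in the submitters' processing notes, along with GRCm38 and mm10, but no versions or settings. The deposited data were 1 table of 23337 symbols with a normalized signal for each library, plus the authors' own log2 fold change, p-value and adjusted p-value. The signal is a count divided by a size factor: 100.0% of values above 0 were whole multiples, within 0.01, of the value of 1 read, which ran from 0.9241 to 1.1387.

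Groups came from the sample titles. Genes with a mean of at least 10 (13175) were fitted with limma (trend, robust) on log2(value + 1), 2-sided, with Benjamini-Hochberg adjustment at 0.05; differences are on that scale. Only Nduf rows and related lists are printed, and 1 core subunit is counted but not reported individually here. EdgeR and DESeq2 were run on the recovered reads. Other alternatives were pseudocounts of 0.5 and 8, no filter or a mean of 50, TMM and quantile normalization, library weights, no moderation trend, the library number as a block and each library left out. Equal library totals, the block without number 825 and the list of complexes II to V were added after the data were seen. The rule for names took members past a threshold or without overlap, the smallest p and largest difference in each role, and the highest and lowest per kb. Members and lists were chosen with earlier results of these data known. The main limma fit and the edgeR and DESeq2 fits without the block were tested on simulated data, and the other alternatives were not. Positions, lengths and shared 50-base stretches come from GENCODE M21 (GRCm38), promoters from RefSeq. Software was Python 3.11.15, DESeq2 1.42.0, limma 3.58.1, R 4.3.3 and edgeR 4.0.16.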

Additional observations from a re-analysis of the deposited data

How the results depend on the processing

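No Nduf gene passed an adjusted p of 0.05 under any alternative run, and the number of positive differences ran from 28 to 39 of 40, or from 33 to 38 when 1 library was left out. Of 40 genes, 24 kept their direction in all alternatives. With quantile normalization the core median was -0.01, and the differences were -0.04 for Ndufa12, -0.02 for Ndufa13, -0.03 for Ndufa7, -0.01 for Ndufaf3, Ndufb10 and Ndufs7, -0.02 for Ndufc2, -0.03 for Ndufs1 and -0.05 for Ndufv2. With equal library totals the core median was again -0.01, the ratio of summed levels 1.07, and the differences were -0.05 for Ndufa12 and Ndufa7, -0.01 for Ndufa13, Ndufa6, Ndufaf3 and Ndufs8, -0.02 for Ndufb10 and Ndufv2 and -0.06 for Ndufs1; this scaling took the median of all genes from -0.02 to -0.10. Equal totals gave -0.01 for the assembly factors with other names. Library weights gave 0.13 for Ndufaf2, 0.02 for Ndufs3, 0.01 for the Ndufaf genes under older symbols and -0.05 for the biogenesis regulators, and edgeR gave -0.00 for Ndufs1. The cause was not tested. Leaving out 1 library gave ranges of -0.14 to 0.02 for Ndufa8, -0.21 to 0.08 for Ndufaf2, -0.06 to 0.26 for Ndufb4, -0.04 to 0.25 for Ndufc2, -0.07 to 0.14 for Ndufs1, -0.05 to 0.04 for Ndufs3, -0.00 to 0.16 for Ndufs8 and for Ndufs4, -0.04 to 0.07 for Ndufa12, -0.01 to 0.12 for Ndufa6, -0.06 to 0.11 for Ndufa7, -0.02 to 0.10 for Ndufb10 and -0.03 to 0.12 for Ndufaf3. For the biogenesis regulators the range was -0.16 to 0.12, and for the Ndufaf genes under older symbols -0.10 to 0.09. Over all genes limma called 40 at an adjusted p under 0.05, edgeR 6, DESeq2 387, library weights 206, no filter 21, pseudocount 8 and quantile normalization 69 each, no trend 24, and limma with 1 library left out between 1 (Sox6- library 1211) and 162 (Sox6+ library 103).

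The library numbers are shared between groups, but the labels do not say what they mark. The deviations of same-numbered libraries from their group means correlated at 0.268, 0.172 and 0.079 for 103, 825 and 1211, so the block was kept as an alternative. With the replicate block 0 Nduf genes passed and the positive count was 37, as without it. By limma, 10 Nduf genes had an unadjusted p under 0.05 in place of 5. The share of all tested genes under that unadjusted p is not given for the block, so the 10 cannot be set against it. Over all genes 267 passed an adjusted p of 0.05 by limma in place of 40, and 120 by edgeR with the block. Each Sox6+ library correlated best with the Sox6- library of its own number. With the block and without number 825, Ndufaf2 was at 0.13, Ndufs1 at -0.01, Ndufs3 at 0.04, the biogenesis regulators at -0.15 and the Ndufaf genes under older symbols at 0.16.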
